A study of Arabidopsis thaliana with 42 samples.

Results

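The comparison described here is that of total poly(A)+ RNA between a line labelled rh6812 and accession Col-0, the wild type, in whole seedlings of Arabidopsis thaliana. It contrasted 6 of the 42 libraries of the study, the 3 total RNA libraries of each genotype, chosen by their labels. Of the 27667 loci in the count table, the 27455 nuclear loci with values were taken, and 20949 of these passed the filter on low counts and were tested. The remaining libraries of the study hold polysome-bound RNA and RNA from a cordycepin time course, and are not described here. Both groups were 5-day-old seedlings in the Col-0 background, with no agent given. The genotype label of the mutant line names no alleles, and the labels do not say whether replicates were separate cultures or how many seedlings each one held. The p-values therefore measure spread among replicate libraries only, and that spread may be technical. The count filter and the spread were taken over 12 poly(A)+ libraries, which include those of polysome-bound RNA.

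The label rh6812 refers to RH6, RH8 and RH12, DEAD-box RNA helicases of the family of yeast DHH1 and animal DDX6. Proteins of this family bind mRNA in cytoplasmic granules, where they take part in the removal of the 5′ cap, a step that exposes a transcript to decay, and in the repression of translation. The steady-state level of a poly(A)+ transcript reflects both how fast it is made and how fast it is removed. In whole seedlings a lower level can come from fewer cells of a type or from less RNA per cell, and these cannot be told apart.

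RH8 and RH12 transcripts were lower and RH6 higher. RH8 (AT4G00660) was at 32.9, 32.6 and 32.6 CPM in the Col-0 libraries, against 2.19, 3.63 and 2.69 CPM in those labelled rh6812, and the groups did not overlap. RH12 (AT3G61240) fell, from 38.5 ± 1.96 to 24.4 ± 1.52 CPM (log2 change -0.66 ± 0.10), and RH6 (AT2G45810) was higher, from 54.5 ± 1.96 to 132 ± 4.97 CPM (log2 change 1.27 ± 0.08). The level of RH6 thus does not by itself bear out the label, on which all directions rest. The mutant samples are therefore called the libraries labelled rh6812. Counts are per locus and the label names no alleles, so whether reads of a disrupted RH6 gene were counted could not be settled. Levels are CPM, counts scaled to library size by TMM, given as mean ± SD over n = 3 libraries, and log2 changes are of the libraries labelled rh6812 over Col-0, ± SE. A gene is said to have risen or fallen only where edgeR's quasi-likelihood test over all genes tested gave a Benjamini-Hochberg adjusted p under the threshold of 0.05.

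Each library held 11783437 to 25864031 counts. The 100 most abundant genes took 27.6% to 32.1% of them. Col-0 replicate 2 stood somewhat apart, since 703 genes made up 50% of its counts, against 518 to 566 genes in the other libraries. As a check of the labelled tissue, all 14 root hair, 9 endodermis, 9 guard cell, 12 phloem and 10 xylem markers passed the filter, with 11 of 13 trichome markers. Of the pollen and the embryo and seed storage markers, 3 of 10 and 5 of 14 passed the filter.

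The change was broad and mostly moderate in size. Of the genes tested, 13536 (64.6%) passed the test, 6753 higher (32.2%) and 6783 lower (32.4%), and 14303 (68.3%) had groups that did not overlap. Among genes that rose the median fold was 1.85, and 2915 (13.9% of those tested) rose by more than 2-fold. The corresponding median among genes that fell was 1.60, and 1895 (9.05%) fell by more than 2-fold. The upper tail was longer than the lower one: 530 genes rose by 8-fold or more and 110 fell by as much. The least abundant decile, with a median of 0.726 CPM, held 629 genes more than 2-fold higher and 299 more than 2-fold lower. Genes that passed the filter only through the group where they are high had to differ, whatever their list. Named genes near the floor in Col-0, such as eIF6B, TAT3 and RLP23 below, may be among them. With library size alone in place of TMM the split was 5482 higher and 8448 lower, and the median log2 change of all genes moved from -0.03 to -0.18. All directions are therefore relative to the TMM scale, and a list described here whose majority turned with that scaling is named as such.

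Long and short transcripts differed in direction. Among the shortest decile of transcripts, with a median length of 707 bases, 48.8% rose and 19.1% fell, and the median log2 change was 0.40. In the longest decile, with a median of 3720 bases, 20.5% rose and 45.4% fell, and the median was -0.22. The medians fell from decile to decile in between. Across the 20949 genes the log2 change and log2 length had a Spearman correlation of -0.19, given as a description, since genes are not replicates. Single libraries showed the same split. Relative to each gene's mean over the 6 libraries, the shortest decile had medians of -0.22, -0.22 and -0.18 log2 units in Col-0 and 0.22, 0.19 and 0.23 in the libraries labelled rh6812, among genes whose mean log2 CPM was 1 or more. Genes with 1 exon had 1492 higher and 795 lower of 3468, and genes with 10 or more exons had 689 higher and 1752 lower of 3869. What part transcript length or RNA quality plays in any list was not tested. The median log2 change of a list was therefore also taken relative to that of genes in the same length decile, a measure added after the data were seen. It moved the medians of 29 of the 101 lists by over 0.15. For such lists counted below by their calls both medians are given.

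**Figure D1:**
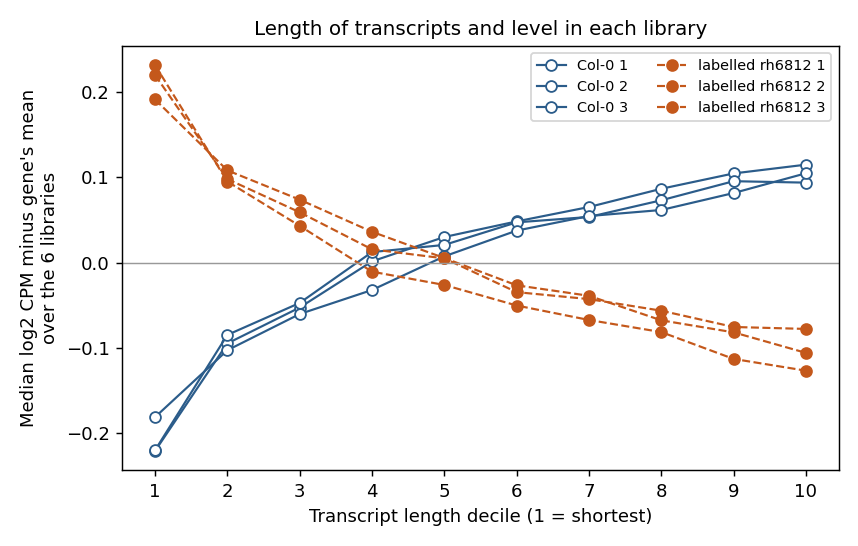
Median log2 CPM of genes in each decile of transcript length, relative to each gene's mean over the 6 libraries, for every library. The x axis is the length decile from shortest to longest. The 3 Col-0 lines rise from about -0.2 to 0.1 and the 3 lines of the libraries labelled rh6812 fall across zero in the opposite direction, with no crossing between genotypes in the shortest or the longest decile.

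By mean CPM over the 6 libraries, the most abundant transcripts rose most often. A gene's own rise or fall enters that mean and so helped to set its decile. In the most abundant decile, with a median of 139 CPM, 1137 of 2095 genes rose and 595 fell, while in the decile around 19.6 CPM 570 rose and 866 fell. The transcripts that gained most in share of all counts were those of MT2B (AT5G02380), a metallothionein, and GRP3S (AT2G05380), a glycine-rich protein. MT2B stood at 1193, 1081 and 1393 CPM in the Col-0 libraries, against 9377, 8841 and 9187 CPM in those labelled rh6812. For GRP3S the values were 2367, 1905 and 2143 CPM in the Col-0 libraries, against 9771, 8377 and 10503 CPM in those labelled rh6812. Neither pair of groups overlapped, and the changes were 2.90 ± 0.11 and 2.16 ± 0.11 on the log2 scale. Small-subunit genes of rubisco, the enzyme that fixes carbon dioxide, also gained. Their counts are uncertain one by one because the copies are near-identical. RBCS1A (AT1G67090) rose from 13408 ± 2705 to 20771 ± 1439 CPM, RBCS3B (AT5G38410) from 4150.2 ± 859 to 8338 ± 619.5 CPM and RBCS1B (AT5G38430) from 1805 ± 338 to 3975 ± 383 CPM. Rubisco activase, RCA (AT2G39730), rose from 4355 ± 530.5 to 7277 ± 518 CPM, and the ferredoxin FED A (AT1G60950), an electron carrier of photosynthesis, from 1960.5 ± 241 to 4545 ± 166 CPM. The lipid transfer protein LP1 (AT2G38540) and the cytosolic glycolytic enzyme GAPC2 (AT1G13440) completed the gains, with AT1G07590. The annotated span of AT1G07590 contains the metallothionein gene MT1A (AT1G07600), which rose from 1787 ± 284 to 3316 ± 332 CPM and was chosen after its values were seen, so reads of the pair cannot be told apart.

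The 10 largest losses in share of all counts were all genes of the light-harvesting antenna. CAB1 (AT1G29930) lost most, and was at 32728, 24711 and 33378 CPM in the Col-0 libraries, against 15235, 16210.2 and 16327 CPM in those labelled rh6812. LHCA4 (AT3G47470) was at 7364, 7029 and 7556 CPM in the Col-0 libraries, against 2527, 3155 and 2524 CPM in those labelled rh6812. Groups did not overlap in either gene. LHCB3 (AT5G54270) fell by a similar amount on the log2 scale (-1.37 ± 0.10) and LHCB6 (AT1G15820) by less (-0.84 ± 0.10). The CAB1, CAB3 (AT1G29910), LHB1B1 (AT2G34430) and LHB1B2 (AT2G34420) copies are near-identical and their split is uncertain. Some photosystem genes were among the most abundant genes that did not pass the test. They were picked because they did not pass and their 95% interval lay within 0.5 log2 units of no change. Photosystem subunits were not counted as a list, so nothing is drawn from these genes about the photosystems as a whole. PSBR (AT1G79040) was at 6615, 5633 and 7247 CPM in the Col-0 libraries, against 6863, 7645 and 7099 CPM in those labelled rh6812, with an interval of -0.06 to 0.36. For PSAL (AT4G12800), PSAD-1 (AT4G02770) and PSBW (AT2G30570) the intervals were -0.22 to 0.20, -0.28 to 0.16 and -0.20 to 0.19. The groups overlapped in each of these genes. PSAD-1 passed the test, as lower, with library size alone (log2 change -0.20) and without Col-0 replicate 2 (-0.20).

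**Figure D2:**
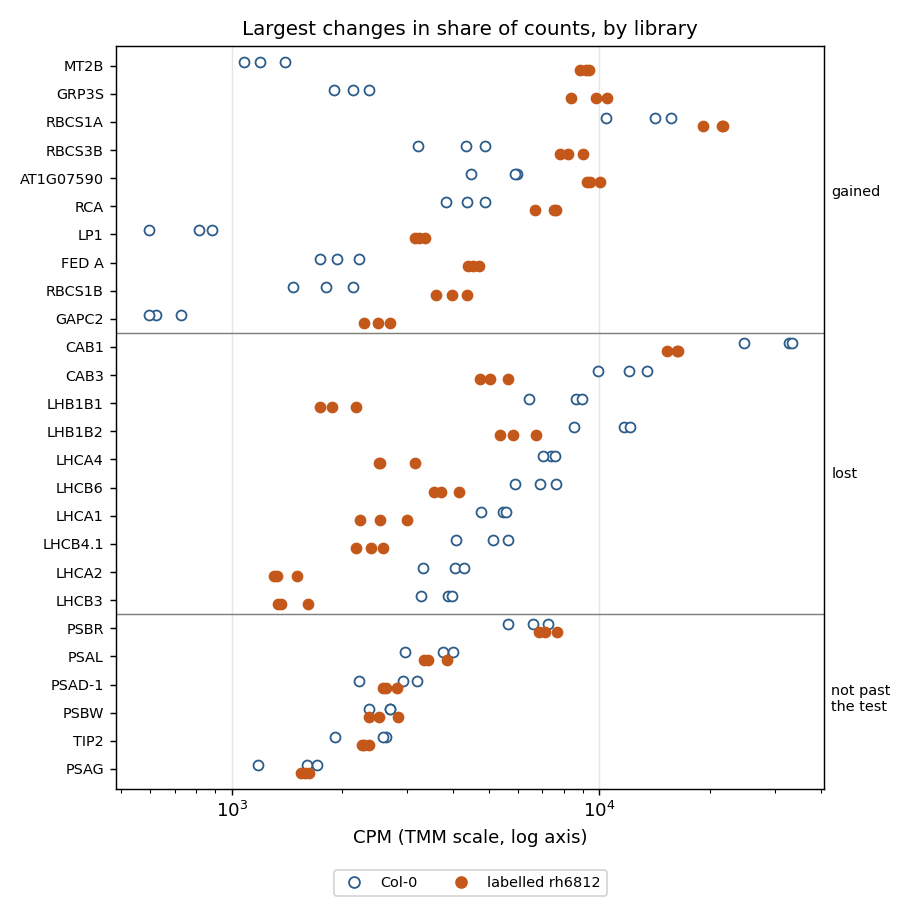
CPM of each library on a log axis for genes with the largest gains and losses in share of counts and for the most abundant genes that did not pass the test. Open circles are Col-0 and filled circles the libraries labelled rh6812. Gains and losses show separate groups, from MT2B at the top of the gains to LHCB3 among the losses, and the points of the genes that did not pass intermingle.

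Genes that build ribosomes rose together. Translation depends on ribosomal proteins, on nucleolar factors that process ribosomal RNA, and on initiation and elongation factors. Of 164 cytosolic ribosomal protein genes tested, of 173 in the list, 159 rose and 1 fell, with a median log2 change of 0.89 against -0.03 for all genes. Relative to genes of the same length the median was 0.62. The list's share of all counts was 2.13%, 2.44% and 2.36% in the Col-0 libraries, against 3.82%, 3.56% and 3.82% in those labelled rh6812, without overlap. The member that fell was AT2G40010, of the L10 family (-0.25 ± 0.11), whose groups overlapped. It passed in neither DESeq2's Wald test, nor with DESeq2's size factors, nor in the fit of the 6 libraries alone, nor in 4 of the 6 fits that left out a library. RPL18 (AT3G05590) was at -0.18 ± 0.09 and did not pass, but did so with library size alone (log2 change -0.32) and without Col-0 replicate 2 (-0.28). Both were chosen after their values were seen. Among the clearest increases were AT2G19740, RPS28 (AT5G64140) and AT3G04230, which rose from 51.7 ± 4.39 to 165 ± 6.49 CPM, from 64.2 ± 7.32 to 179 ± 12.6 CPM and from 9.68 ± 0.476 to 33.3 ± 4.76 CPM. Ribosomal protein paralogs share sequence, so the values of single copies are uncertain.

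Of 26 genes of ribosome biogenesis, 19 rose and 2 fell (median 0.60). Among the clearest increases were genes of the particles that modify ribosomal RNA with guide RNAs. NOP56, a core protein of box C/D particles, NAP57, the pseudouridine synthase of box H/ACA particles, and NOP10, a small partner of NAP57, are shown here with the 150 bases before their annotated starts, from the RefSeq TAIR10.1 sequence. Capitals mark the site II element TGGGCC and the telo-box AAACCCTA on either strand, read 5′ to 3′, motifs known from promoters of plant ribosomal protein genes.
NOP56 promoter, chromosome 1, minus strand: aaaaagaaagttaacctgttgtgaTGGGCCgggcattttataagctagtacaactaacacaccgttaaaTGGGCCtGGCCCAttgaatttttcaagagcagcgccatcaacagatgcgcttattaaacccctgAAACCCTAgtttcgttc
NAP57 promoter, chromosome 3, minus strand: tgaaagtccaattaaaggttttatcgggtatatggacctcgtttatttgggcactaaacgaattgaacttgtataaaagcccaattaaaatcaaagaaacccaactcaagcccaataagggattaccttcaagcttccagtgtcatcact
NOP10 promoter, chromosome 2, plus strand: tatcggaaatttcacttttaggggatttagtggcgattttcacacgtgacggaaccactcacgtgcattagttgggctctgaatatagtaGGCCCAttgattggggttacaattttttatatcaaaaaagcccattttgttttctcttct
In these windows NOP56 held 3 runs of TGGGCC and 1 telo-box, NOP10 held 1 run of TGGGCC, and NAP57 held neither. Only these exact letters were searched, on both strands, so other spellings of the site II element were not counted here or below. The 150 bases before the ribosomal protein genes AT2G19740, RPS28 and AT3G04230, named above among the clearest increases, held neither run of letters. NOP56 (AT1G56110) was at 62.7, 63.7 and 69.6 CPM in the Col-0 libraries, against 172, 164 and 181 CPM in those labelled rh6812. NAP57 (AT3G57150) was at 102, 104 and 122 CPM in the Col-0 libraries, against 283, 261 and 336 CPM in those labelled rh6812. NOP10 (AT2G20490) rose from 6.39 ± 0.331 to 21.4 ± 1.99 CPM. All 3 had separate groups. Over the 250 bases before the start, 56.7% of the promoters of ribosomal protein genes held a site II element, against 15.9% of the 20945 promoters of genes tested, and 21.3% held a telo-box, against 3.64%. Across all genes tested, 34.8% of those with a site II element rose and 27.8% fell, and of those without it 31.7% rose and 33.3% fell. A match is a run of letters and not a measured binding site.

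Factors that act in initiation and elongation rose more often than they fell. Of 27 elongation factors 21 rose and 2 fell, and of 53 initiation factors 27 rose and 8 fell. FBR12 (AT1G26630), an eIF5A that helps ribosomes through difficult peptide bonds, rose from 614 ± 59.4 to 1853 ± 103 CPM (log2 change 1.59 ± 0.09, adjusted p = 1.9e-15). eIF6B (AT2G39820), a paralog of a factor that keeps the large subunit apart from the small one, rose from 0.178 ± 0.0523 to 5.53 ± 0.409 CPM. The initiation factor IF3 family gene AT4G30690 fell from 59.5 ± 4.66 to 14.9 ± 2.3 CPM. Of 45 aminoacyl-tRNA synthetases, which charge tRNAs, 15 rose (33.3%) and 8 fell (17.8%), against 32.2% and 32.4% of all genes tested. That majority turned, to 7 higher and 14 lower, with library size alone, and the number that rose was 8 without Col-0 replicate 1 and 9 without rh6812 replicate 1 or replicate 2.

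Genes for ribosomes of the organelles rose more often than they fell. Of 32 plastid ribosomal protein genes 20 rose and 3 fell, with a median of 0.31, and of 0.09 relative to genes of the same length. PSRP6 (AT5G17870) and SSR16 (AT4G34620) rose from 373 ± 30.2 to 955 ± 73.4 CPM and from 851 ± 130.5 to 2052 ± 185 CPM. AT5G24490, a 30S ribosomal protein, fell from 469 ± 70.0 to 175 ± 28.3 CPM. Of 6 mitochondrial ribosomal protein genes 5 rose, and 3 rose without Col-0 replicate 1, rh6812 replicate 1 or rh6812 replicate 2.

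**Figure D3:**
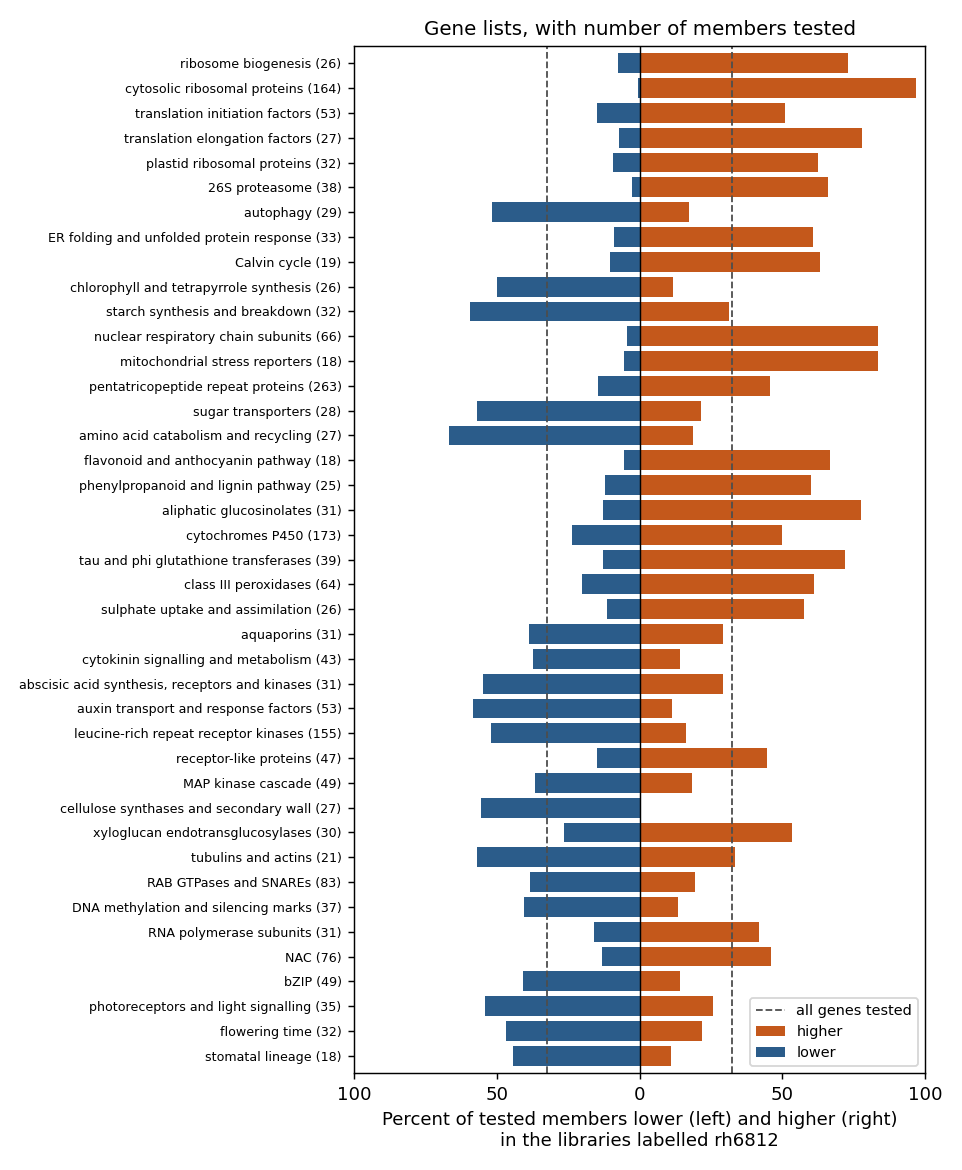
Percent of tested members that rose (right) and fell (left) in selected gene lists described here, with the number tested in brackets. Lists left out include large ones near the background, among them nucleotide-binding receptors and pectin enzymes. Dashed lines mark the background, 32.2% higher and 32.4% lower of all genes tested. Cytosolic ribosomal proteins, respiratory chain subunits and mitochondrial stress reporters reach farthest to the right, and amino acid catabolism, auxin transport and response factors and starch enzymes farthest to the left.

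Genes of the proteasome and of folding in the endoplasmic reticulum rose more often than they fell, and autophagy genes fell more often than they rose. The 26S proteasome degrades proteins marked with ubiquitin. Of its 38 subunit genes tested, 25 rose and 1, RPN1B (AT4G28470) (-0.64 ± 0.09), fell. The core subunits PBD2 (AT4G14800) and PAD1 (AT3G51260) rose from 39.4 ± 2.93 to 100.2 ± 10.3 CPM and from 143 ± 12.8 to 289 ± 28.8 CPM. Folding and quality control in the endoplasmic reticulum is carried by BiP chaperones, protein disulphide isomerases and lectin chaperones. Of 33 such genes 20 rose and 3 fell. The stress-induced chaperone BIP3 (AT1G09080) was at 1.48, 1.67 and 1.03 CPM in the Col-0 libraries, against 33.3, 40.4 and 41.0 CPM in those labelled rh6812, with no overlap (log2 change 4.71 ± 0.16, adjusted p = 3.2e-21). BIP1 (AT5G28540), whose reads are hard to tell from those of BIP2, rose from 174 ± 17.2 to 408 ± 36.6 CPM, and the disulphide isomerase PDIL2-3 (AT2G32920) rose from 53.8 ± 9.99 to 138 ± 7.84 CPM. The sensor kinase gene IRE1-1 (AT5G24360) fell (-0.54 ± 0.11).

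Autophagy delivers cytoplasm to the vacuole, and ATG8 proteins mark its membranes. Of 29 genes 5 rose and 15 fell, and the list's share of counts went from 0.0882% ± 0.00560 to 0.0645% ± 0.00154. The ATG8 paralogs moved both ways. ATG8F (AT4G16520) and ATG8E (AT2G45170) fell from 91.2 ± 9.0 to 40.1 ± 0.522 CPM and from 63.5 ± 3.20 to 28.9 ± 1.37 CPM, while ATG8B (AT4G04620) and ATG8D (AT2G05630) rose from 14.9 ± 0.103 to 23.9 ± 0.939 CPM and from 7.36 ± 0.589 to 12.6 ± 0.554 CPM. ATG13 (AT3G49590), a subunit of the kinase complex that starts autophagy, fell (-0.64 ± 0.11). Subtilases, secreted serine proteases, had 5 of 7 higher and 1 lower, with a median of 2.01 (2.2 relative to length), and ATSBT5.2 (AT1G20160) rose from 9.37 ± 0.627 to 53.9 ± 4.29 CPM.

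Among chloroplast genes, those of carbon fixation rose more often than they fell, and those of chlorophyll synthesis the reverse. Calvin cycle enzymes had 12 higher and 2 lower of 19. FBA2 (AT4G38970), an aldolase, was at 1309, 1139.9 and 1572 CPM in the Col-0 libraries, against 2915, 3178 and 3431 CPM in those labelled rh6812, and CP12-2 (AT3G62410), a small regulator that binds Calvin cycle enzymes, rose from 72.1 ± 7.77 to 224 ± 20.03 CPM. The groups of FBA2 did not overlap. GAPA-2 (AT1G12900) and HCEF1 (AT3G54050), a fructose bisphosphatase, fell by smaller amounts (-0.44 ± 0.09 and -0.31 ± 0.09). Of 26 genes of chlorophyll and tetrapyrrole synthesis 3 rose and 13 fell. The protochlorophyllide oxidoreductase PORB (AT4G27440), which makes chlorophyllide in the light, was at 754, 652 and 782 CPM in the Col-0 libraries, against 149.9, 159 and 157 CPM in those labelled rh6812, without overlap (log2 change -2.23 ± 0.09, adjusted p = 5e-19). The methyltransferase CHLM (AT4G25080) fell from 419 ± 3.91 to 249 ± 22.1 CPM. Carotenoid and plastid isoprenoid genes split, with 10 higher and 6 lower of 25, a majority that turned to 7 higher and 8 lower with library size alone. Within it ZDS (AT3G04870), a carotene desaturase, rose (1.18 ± 0.09) and NPQ1 (AT1G08550), the de-epoxidase of the xanthophyll cycle, fell from 89.8 ± 7.02 to 35.2 ± 1.58 CPM.

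Proteins that protect the photosystems from excess light had 4 higher and 0 lower of 7, with a median of 0.66 (0.26 relative to length). ELIP2 (AT4G14690), an early light-induced protein, was at 0.809, 1.74 and 1.19 CPM in the Col-0 libraries, against 187, 132 and 234 CPM in those labelled rh6812. Its groups were far apart (log2 change 7.20 ± 0.34). NPQ4 (AT1G44575), the PsbS protein needed for rapid heat dissipation, rose from 702 ± 67.7 to 1288 ± 34.5 CPM. Plastid protein import had 10 higher and 4 lower of 21, and 8 higher and 9 lower with library size alone. The import receptor TOC159 (AT4G02510) rose from 423 ± 51.3 to 1004 ± 169 CPM, and Tic62 (AT3G18890), a redox-linked protein of the inner envelope, fell (-0.82 ± 0.09). Photorespiration had 7 higher and 1 lower of 14. The lower one was the peroxisomal aminotransferase AGT (AT2G13360), which fell from 1427 ± 164 to 869 ± 48.2 CPM.

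Genes of starch turnover fell more often than they rose. Starch is made in chloroplasts by day and broken down at night, and many of its genes follow the daily cycle. Of 32 genes tested 10 rose and 19 fell, and the median of -0.55 was -0.35 relative to genes of the same length. The clearest decreases were in genes of breakdown. SEX1 (AT1G10760), the glucan water dikinase that opens the granule surface, was at 193, 172 and 181 CPM in the Col-0 libraries, against 36.5, 42.5 and 35.9 CPM in those labelled rh6812. PHS2 (AT3G46970), a cytosolic glucan phosphorylase, was at 127, 112 and 125 CPM in the Col-0 libraries, against 25.7, 32.8 and 29.4 CPM in those labelled rh6812. AMY3 (AT1G69830), a plastid alpha-amylase, fell from 173 ± 10.14 to 53.2 ± 4.05 CPM, and DPE2 (AT2G40840), which handles maltose in the cytosol and was chosen after its values were seen, fell from 67.1 ± 0.998 to 18 ± 2.40 CPM. None of these groups overlapped. Members of both sides of the pathway rose. ADG1 (AT5G48300), the small subunit of the first committed enzyme of synthesis, rose from 89.2 ± 9.91 to 176 ± 14.3 CPM, and the granule-bound synthase GBSS1 (AT1G32900) rose from 7.55 ± 0.764 to 21.8 ± 1.38 CPM. LSF2 (AT3G10940), a phosphatase of starch breakdown, rose from 12.6 ± 0.504 to 28.0 ± 4.29 CPM. In the same libraries the clock gene LHY (AT1G01060), active around dawn, rose from 3.84 ± 0.339 to 46.9 ± 3.07 CPM, and GI (AT1G22770), active late in the day, fell from 79.8 ± 10.3 to 21.2 ± 1.16 CPM. Both were chosen after their values were seen. Their part in the starch result was not tested, and the labels give no time of day for the harvests.

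**Figure D4:**
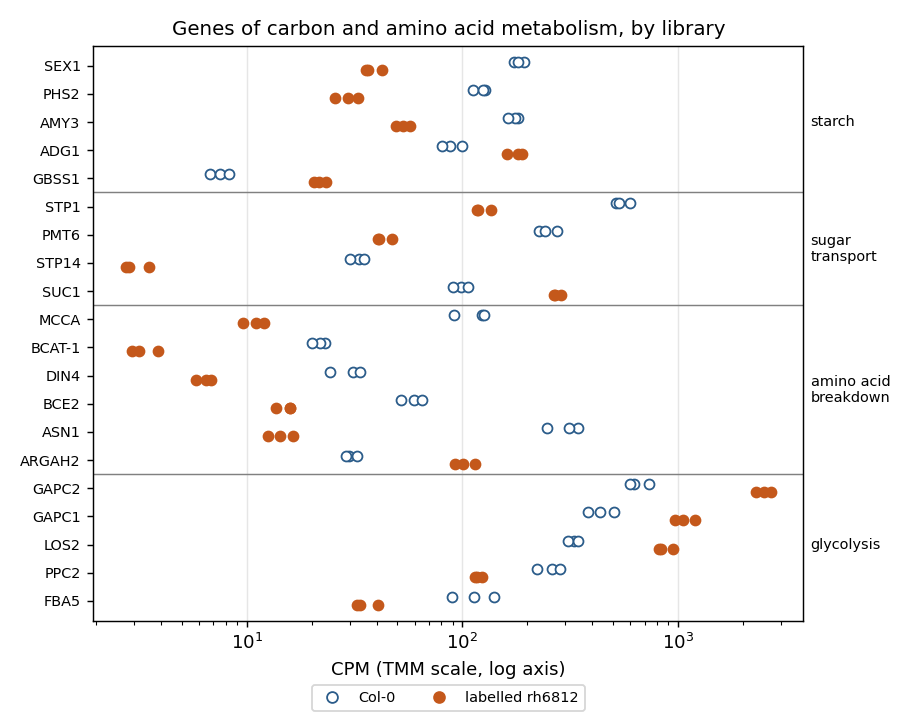
CPM of each library on a log axis for named genes of starch, sugar transport, amino acid breakdown and glycolysis. Open circles are Col-0 and filled circles the libraries labelled rh6812. The groups of every gene shown are separate, with SEX1, STP1, MCCA and ASN1 lower and ADG1, GAPC2 and LOS2 higher in the libraries labelled rh6812.

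Nuclear genes for mitochondrial functions rose more often than they fell. Nuclear genes for respiratory chain subunits, which pass electrons to oxygen, had 55 higher and 3 lower of 66, with a median of 0.88 (0.68 relative to genes of the same length). Their share of counts was 0.357%, 0.379% and 0.372% in the Col-0 libraries, against 0.718%, 0.699% and 0.743% in those labelled rh6812, without overlap. SDH5 (AT1G47420), a subunit of succinate dehydrogenase, was at 91.6, 90.5 and 94.1 CPM in the Col-0 libraries, against 238, 259.7 and 249.9 CPM in those labelled rh6812. AT2G47380, a cytochrome c oxidase subunit gene, rose from 63.0 ± 4.75 to 207 ± 23.1 CPM. AT1G17350, annotated as an assembly-intermediate protein of complex I, fell (-1.08 ± 0.17).

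Reporters of mitochondrial stress, chosen for their known response to respiratory inhibitors, had 15 higher and 1 lower of 18. BCS1 (AT3G50930), an ATPase of the AAA family, was at 1.65, 1.43 and 1.90 CPM in the Col-0 libraries, against 19.2, 21.7 and 14.9 CPM in those labelled rh6812. UCP5 (AT2G22500), a carrier of the inner membrane, rose from 24.3 ± 1.66 to 76.3 ± 4.8 CPM. The alternative oxidase AOX1A (AT3G22370), which bypasses part of the chain and was chosen after its values were seen, rose from 22.9 ± 1.69 to 39.7 ± 5.18 CPM. The pentatricopeptide repeat proteins, which edit, splice and stabilise organelle RNA, form a large family in plants. Of 263 tested 120 rose and 38 fell, with 50 and 1 of these past 2-fold. The median was 0.34, or 0.48 relative to genes of the same length. Their summed share of counts overlapped between the groups (0.284% ± 0.0245 and 0.296% ± 0.00834). emb1796 (AT3G49240) rose from 26.7 ± 0.512 to 79.8 ± 8.50 CPM and OTP43 (AT1G74900), a splicing factor for a mitochondrial transcript, fell from 16.0 ± 0.343 to 6.56 ± 0.557 CPM.

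Genes that break down amino acids had the lowest median of the 101 lists. Branched-chain amino acid breakdown in mitochondria feeds respiration when sugar is short, and several of its genes are known as dark-inducible. Of 27 genes of amino acid catabolism and recycling 5 rose and 18 fell, 15 of these by more than 2-fold, and the median was -1.11. The list's share of counts was 0.235%, 0.254% and 0.193% in the Col-0 libraries, against 0.107%, 0.110% and 0.105% in those labelled rh6812. MCCA (AT1G03090), a subunit of methylcrotonyl-CoA carboxylase in leucine breakdown, was at 123.2, 126 and 91.4 CPM in the Col-0 libraries, against 12.1, 11.1 and 9.65 CPM in those labelled rh6812. BCAT-1 (AT1G10060), a branched-chain aminotransferase, fell from 21.6 ± 1.43 to 3.34 ± 0.492 CPM. Both genes had separate groups. Further genes, chosen after their values were seen, went the same way: DIN4 (AT3G13450) and BCE2 (AT3G06850), subunits of the branched-chain keto acid dehydrogenase, fell from 29.8 ± 4.74 to 6.40 ± 0.537 CPM and from 59.0 ± 6.55 to 15.2 ± 1.28 CPM. ASN1 (AT3G47340), the asparagine synthetase induced by darkness, was at 342, 313 and 247 CPM in the Col-0 libraries, against 16.4, 12.6 and 14.3 CPM in those labelled rh6812. Against this direction, the tyrosine aminotransferase TAT3 (AT2G24850) and the arginase ARGAH2 (AT4G08870) rose from 0.311 ± 0.283 to 37.7 ± 7.93 CPM and from 30.3 ± 1.82 to 102 ± 11 CPM.

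Sugar transporters fell more often than they rose. Of 28 sugar transporters 6 rose and 16 fell, and their share of counts went from 0.204% ± 0.00774 to 0.114% ± 0.00441. STP1 (AT1G11260), a hexose importer of the plasma membrane, was at 596, 516 and 530.1 CPM in the Col-0 libraries, against 136, 118 and 117 CPM in those labelled rh6812. PMT6 (AT4G36670), a polyol and monosaccharide transporter, and STP14 (AT1G77210) fell from 247 ± 24.4 to 43.1 ± 3.73 CPM and from 32.8 ± 2.39 to 3.06 ± 0.430 CPM, while the sucrose transporter SUC1 (AT1G71880) rose from 98.0 ± 7.75 to 273 ± 10.3 CPM. Trehalose phosphate enzymes, which make and remove a signal of sucrose level, had 5 higher (27.8%) and 7 lower (38.9%) of 18. Over all genes tested the shares were 32.2% and 32.4%. Counted by kind after the values were seen, 5 of 9 phosphatases rose and 0 fell, and 6 of 8 synthases and synthase-like proteins fell and 0 rose. The synthase-like TPS10 (AT1G60140), ATTPS6 (AT1G68020) and TPS9 (AT1G23870) fell, TPS10 from 181 ± 8.09 to 62.3 ± 3.19 CPM, and the phosphatases TPPJ (AT5G65140), TPPH (AT4G39770) and TPPE (AT2G22190) rose, TPPH from 2.33 ± 0.395 to 9.54 ± 1.76 CPM.

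Genes of glycolysis and pyruvate metabolism showed no common direction, with 12 higher (37.5%) and 11 lower (34.4%) of 32, near the background. With library size alone the counts were 10 and 15. Their share of counts went from 0.357% ± 0.0146 to 0.643% ± 0.0398, a ratio of 1.80, or 1.37 without GAPC2. GAPC2 was at 623, 595 and 730.1 CPM in the Col-0 libraries, against 2508, 2290.3 and 2694 CPM in those labelled rh6812. GAPC1 (AT3G04120), its near copy, and LOS2 (AT2G36530), the enolase, rose from 439 ± 59.5 to 1071 ± 117 CPM and from 327 ± 18.8 to 863 ± 74.1 CPM. PPC2 (AT2G42600), a phosphoenolpyruvate carboxylase, and the aldolase FBA5 (AT4G26530) fell from 255 ± 31.7 to 118 ± 4.62 CPM and from 114 ± 25.7 to 35.6 ± 4.51 CPM. Fatty acid synthesis and desaturation had 8 higher (29.6%) and 10 lower (37.0%) of 27, near the background on both sides. The desaturases FAD2 (AT3G12120) and ADS2 (AT2G31360) fell from 425 ± 68.4 to 197 ± 7.24 CPM and from 288 ± 19.4 to 138 ± 8.54 CPM, and the stearoyl desaturase SSI2 (AT2G43710) rose (0.74 ± 0.08). Beta-oxidation and glyoxylate cycle genes had 5 higher and 7 lower of 22, near the background on both sides, and ACX4 (AT3G51840), a short-chain acyl-CoA oxidase, fell from 131 ± 8.26 to 66.0 ± 1.79 CPM. Without Col-0 replicate 2 the number higher was 3.

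Genes of specialised metabolism and detoxification rose more often than they fell. Aliphatic glucosinolates are sulphur-rich defence compounds made from methionine in Brassicales. Of 31 genes of their synthesis, transport and breakdown 24 rose and 4 fell, and the ratio of their share of counts to that in Col-0 was 2.12, or 1.5 without ESM1. ESM1 (AT3G14210), a modifier of glucosinolate breakdown, was at 97.4, 84.7 and 106 CPM in the Col-0 libraries, against 1494, 1583 and 1800.5 CPM in those labelled rh6812, with no overlap (log2 change 4.08 ± 0.11, adjusted p = 1.1e-23). MYB28 (AT5G61420), the main transcriptional regulator of the pathway, was at 11.7, 11.3 and 12.7 CPM in the Col-0 libraries, against 47.0, 53.7 and 48.1 CPM in those labelled rh6812. SOT17 (AT1G18590), which adds the sulphate group, rose from 5.85 ± 0.485 to 27.1 ± 2.64 CPM. The myrosinase TGG2 (AT5G25980) fell from 29.4 ± 2.01 to 13.6 ± 3.74 CPM. Flavonoid and anthocyanin genes had 12 higher and 1 lower of 18 tested, of 28 in the list. Among them the hydroxylase F3H (AT3G51240) rose from 12 ± 3.58 to 51.1 ± 8.77 CPM, the glycosyltransferase UGT78D2 (AT5G17050) rose from 11.4 ± 2.89 to 48.0 ± 4.85 CPM, and MYBL2 (AT1G71030), a repressor of anthocyanin synthesis, fell from 56.6 ± 3.79 to 8.99 ± 0.884 CPM. Phenylpropanoid and lignin genes had 15 higher and 3 lower of 25, and CCoAOMT1 (AT4G34050), a methyltransferase of lignin precursors, rose from 121 ± 5.22 to 332 ± 27 CPM.

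Glutathione transferases of the tau and phi classes join glutathione to toxic compounds. Of 39 tested 28 rose, 23 of them by more than 2-fold, and 5 fell. Their share of counts was 0.253%, 0.261% and 0.263% in the Col-0 libraries, against 0.715%, 0.766% and 0.808% in those labelled rh6812. GSTU19 (AT1G78380) was at 671, 589 and 676 CPM in the Col-0 libraries, against 1948, 2178 and 2257 CPM in those labelled rh6812, and GSTF6 (AT1G02930) rose from 66.2 ± 2.46 to 376 ± 38.5 CPM. GSTU18 (AT1G10360) went the other way (-1.35 ± 0.10). Class III peroxidases, secreted enzymes of the cell wall, had 39 higher and 13 lower of 64. AT4G33420 rose from 11.7 ± 0.946 to 55.7 ± 4.59 CPM and AT3G01190 fell from 91.7 ± 6.42 to 35.3 ± 2.04 CPM. Antioxidant enzymes had 20 higher and 9 lower of 39. VTC2 (AT4G26850), which controls ascorbate synthesis, and MSD1 (AT3G10920), the mitochondrial superoxide dismutase, rose from 75.4 ± 13.6 to 288 ± 32.4 CPM and from 119.5 ± 0.855 to 274 ± 31.8 CPM, and the copper chaperone CCS (AT1G12520) fell from 38.7 ± 2.18 to 18.5 ± 2.36 CPM. Cytochromes P450 had 86 higher and 41 lower of 173 tested, of 234 in the list. CYP83B1 (AT4G31500), of indole glucosinolate synthesis, rose from 72.4 ± 8.88 to 307 ± 5.19 CPM, and the brassinosteroid enzyme gene CPD (AT5G05690) fell from 256 ± 24.4 to 94.2 ± 2.7 CPM. UDP-glycosyltransferases had 24 higher and 15 lower of 54, and terpene synthases 6 and 3 of 13, with a median of 0.70 (0.89 relative to length) for the latter.

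Small secreted proteins gained in share of counts. Plant defensins, thionins and protease inhibitors, most of which were too low to test, had 10 higher and 2 lower of 16 tested, of 95 in the list, with a median of 1.18 (0.85 relative to length). Their share was 0.0780%, 0.0777% and 0.0828% in the Col-0 libraries, against 0.257%, 0.264% and 0.277% in those labelled rh6812. The defensin-like LCR68 (AT2G02130) was at 94.8, 102 and 120.2 CPM in the Col-0 libraries, against 486, 526 and 529 CPM in those labelled rh6812, LCR69 (AT2G02100) rose from 131 ± 3.59 to 585 ± 37.6 CPM and the cystatin CYS1 (AT5G12140) from 89.9 ± 5.68 to 325 ± 18.2 CPM. Genes that passed the filter only through the group where they are high had to differ, so this count carries no weight of its own. Lipid transfer proteins had 9 higher and 2 lower of 15, with a median of 0.69 (0.50 relative to length). LTP2 (AT2G38530) was at 69.3, 57.3 and 73.8 CPM in the Col-0 libraries, against 835, 948 and 989 CPM in those labelled rh6812, and LTP (AT2G15050) fell (-1.14 ± 0.13).

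Nutrient transport was mixed. Sulphate uptake and assimilation had 15 higher and 3 lower of 26. AKN2 (AT4G39940), a kinase that makes the sulphate donor of sulphotransferases, rose from 16.6 ± 2.74 to 51.3 ± 5.10 CPM, and the reductase APR3 (AT4G21990) fell from 45.6 ± 7.42 to 23.1 ± 4.79 CPM. Of 31 phosphate starvation genes 12 rose (38.7%) and 7 fell (22.6%), against 32.2% and 32.4% of all genes tested, and their median was -0.03. PAP17 (AT3G17790), an acid phosphatase, rose from 11.5 ± 1.74 to 42.7 ± 4.64 CPM and PHO1 (AT3G23430), which loads phosphate into the xylem, fell from 43.2 ± 1.71 to 16.9 ± 1.26 CPM. Among 31 aquaporins 9 rose (29.0%) and 12 fell (38.7%), near the background on both sides. The vacuolar GAMMA-TIP (AT2G36830) was at 523, 419 and 611 CPM in the Col-0 libraries, against 1935, 1795 and 1986 CPM in those labelled rh6812, and DELTA-TIP (AT3G16240) fell from 1732 ± 247 to 926 ± 63.8 CPM, while TIP2 (AT3G26520) had an interval of -0.25 to 0.17 about no change. Channels for potassium and other cations, with glutamate-receptor channels, had 25 higher and 27 lower of 59, with a median of -0.23 (-0.01 relative to length). The cyclic nucleotide-gated channel DND1 (AT5G15410) fell from 131 ± 22.8 to 40.6 ± 4.2 CPM. Proton and calcium pumps had 19 higher and 20 lower of 46, with the vacuolar ATPase subunit TUF (AT4G11150) higher (0.86 ± 0.08) and the vacuolar calcium exchanger CAX1 (AT2G38170) lower, from 173 ± 15.9 to 35.6 ± 3.20 CPM. Amino acid transporters had 20 higher (29.4%) and 25 lower (36.8%) of 68, near the background on both sides. AAP2 (AT5G09220) fell from 117 ± 9.04 to 36.4 ± 4.8 CPM.

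Genes of the auxin and abscisic acid pathways fell more often than they rose. Auxin moves between cells through PIN carriers and acts through receptors and response factors. Of 53 genes of auxin transport and response 6 rose and 31 fell, with a median of -0.42 (-0.27 relative to genes of the same length). PIN7 (AT1G23080) was at 157, 137 and 142 CPM in the Col-0 libraries, against 18.3, 24.1 and 17.8 CPM in those labelled rh6812. GRH1 (AT4G03190), an auxin receptor of the TIR1 family, and the response factor ARF6 (AT1G30330) fell from 35.4 ± 1.40 to 9.25 ± 1.39 CPM and from 53.8 ± 4.56 to 21.5 ± 0.702 CPM. Abscisic acid signals drought through PYR-family receptors and SnRK2 kinases. Of 31 genes of its synthesis, receptors and kinases 9 rose and 17 fell. The kinases SNRK2.2 (AT3G50500) and SNRK2.3 (AT5G66880) fell from 80.4 ± 4.39 to 33.6 ± 0.242 CPM and from 11.9 ± 0.702 to 3.98 ± 0.180 CPM, and so did the factor ABF1 (AT1G49720), from 34.1 ± 4.93 to 8.82 ± 0.851 CPM, while the receptor PYL1 (AT5G46790) rose from 59.8 ± 6.79 to 99.3 ± 7.65 CPM. Cytokinin genes had 6 higher and 16 lower of 43, and the 37.2% lower is near the 32.4% of all genes tested. The receptor HK2 (AT5G35750) fell from 24.5 ± 1.36 to 13.2 ± 0.788 CPM, and CYP735A2 (AT1G67110), which makes trans-zeatin forms, rose from 3.18 ± 0.368 to 19.1 ± 0.899 CPM. In the karrikin and strigolactone pathway 7 rose and 5 fell of 16, and the number that fell was 2 without Col-0 replicate 3 and 3 without Col-0 replicate 1 or rh6812 replicate 2 or 3. CYP711A1 (AT2G26170), also known as MAX1, a strigolactone synthesis enzyme, rose from 5.20 ± 0.616 to 22.7 ± 1.74 CPM.

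Receptor families were counted one by one. Leucine-rich repeat receptor kinases read peptides and steroids at the cell surface, and their transcripts are long. Of 155 tested 25 rose and 81 fell. The median of -0.33 was -0.13 relative to genes of the same length. CLV1 (AT1G75820), the receptor that limits the shoot meristem, was at 78.0, 56.1 and 71.3 CPM in the Col-0 libraries, against 18.9, 15.7 and 20.1 CPM in those labelled rh6812, and AT3G03770 rose from 8.44 ± 0.951 to 34.1 ± 1.62 CPM. Receptor-like proteins, which lack a kinase, had 21 higher and 7 lower of 47, with a median of 0.29 (0.49 relative to length). RLP23 (AT2G32680), a receptor for a conserved microbial peptide, rose from 0.441 ± 0.201 to 8.30 ± 1.44 CPM, and TMM (AT1G80080), a receptor of stomatal patterning, fell from 10.6 ± 0.747 to 4.69 ± 0.428 CPM. Intracellular nucleotide-binding leucine-rich repeat receptors had 38 higher (28.6%) and 40 lower (30.1%) of 133, near the background on both sides. Their median was 0.01 (0.21 relative to length), and 37 rose and 26 fell without rh6812 replicate 3. RPP4 (AT4G16860) and RPP5 (AT4G16950), neighbouring resistance genes of like sequence, fell from 60.5 ± 1.82 to 22.5 ± 2.66 CPM and from 103 ± 1.55 to 44.5 ± 2.6 CPM, and AT5G58120 rose from 2.7 ± 0.812 to 16.7 ± 1.11 CPM. Wall-associated kinases, which bind pectin, had 4 higher and 6 lower of 12, with a median of -0.06 (0.12 relative to length), and WAK1 (AT1G21250) was at 2.46, 3.14 and 3.33 CPM in the Col-0 libraries, against 83.3, 113 and 107 CPM in those labelled rh6812. Cysteine-rich receptor kinases had 17 higher and 13 lower of 39, with a median of 0.15 (0.34 relative to length), and 15 and 17 with library size alone.

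Signalling peptides had 54 of 98 members tested, with a median of 0.35 (0.12 relative to length). Of these 22 rose and 11 fell, and 6 fell without rh6812 replicate 2. That is 40.7% higher and 20.4% lower, against 43.9% and 22.2% over all genes of the same length deciles. The phytosulfokine precursors PSK4 (AT3G49780) and PSK2 (AT2G22860), which encode growth peptides, rose from 25.9 ± 2.51 to 57.3 ± 4.81 CPM and from 3.10 ± 0.789 to 14.9 ± 2.09 CPM. RGF6 (AT4G16515), a precursor of root meristem growth factor, was at 18.3, 16.3 and 18.1 CPM in the Col-0 libraries, against 0.981, 0.787 and 0.573 CPM in those labelled rh6812. Calcium-dependent and CBL-interacting kinases had 13 higher and 28 lower of 61, and 7 rose without Col-0 replicate 2. CIPK20 (AT5G45820) fell from 60.3 ± 1.72 to 9.52 ± 0.364 CPM. In the MAP kinase cascade 9 rose and 18 fell of 49, and against a 2-fold change 4 were higher and 0 lower. The 36.7% lower equals the 36.7% over all genes of the same length deciles, and the 18.4% higher compares with 27.7%. MPK6 (AT2G43790) fell from 36.5 ± 4.26 to 20.4 ± 0.734 CPM, and its upstream kinases MKK4 (AT1G51660) and MKK9 (AT1G73500) rose (1.02 ± 0.14 and 1.03 ± 0.15).

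In the cell wall, genes of cellulose synthesis fell more often than they rose, and those of extensins and proline-rich proteins rose more often than they fell. Of 27 genes for cellulose synthases and secondary wall formation 0 rose and 15 fell, with a median of -0.58 (-0.56 relative to genes of the same length). Their share of counts was 0.307%, 0.287% and 0.299% in the Col-0 libraries, against 0.159%, 0.138% and 0.149% in those labelled rh6812, without overlap. The catalytic subunits of the primary wall led the list. CEV1 (AT5G05170), which encodes the synthase CESA3, was at 443, 376 and 436 CPM in the Col-0 libraries, against 179.5, 161 and 173 CPM in those labelled rh6812. CESA6 (AT5G64740) was at 291, 256 and 304 CPM in the Col-0 libraries, against 128, 106 and 127 CPM in those labelled rh6812, and CESA1 (AT4G32410) fell from 402 ± 40.0 to 197 ± 20.1 CPM. Of the secondary wall subunits, which act in xylem, CESA4 (AT5G44030) fell from 23.3 ± 2.63 to 12.9 ± 0.745 CPM and IRX3 (AT5G17420) from 11.8 ± 1.09 to 9.10 ± 0.959 CPM. IRX3 passed in neither DESeq2's Wald test nor the fits without Col-0 replicate 1, Col-0 replicate 3 or rh6812 replicate 2. CESA1 and IRX3 were chosen after their values were seen. Extensins and proline-rich proteins, which form crosslinked networks in the wall, had 12 higher and 0 lower of 13. PRP2 (AT2G21140) was at 28.2, 26.5 and 29.5 CPM in the Col-0 libraries, against 327, 308 and 359 CPM in those labelled rh6812, and EXT4 (AT1G76930) rose from 101.3 ± 4.97 to 349.7 ± 42.2 CPM. Xyloglucan endotransglucosylases, which cut and rejoin hemicellulose, had 16 higher and 8 lower of 30, while their share of counts went from 0.171% ± 0.00230 to 0.161% ± 0.00341. XTH18 (AT4G30280) rose from 42.0 ± 0.510 to 119 ± 7.96 CPM and XTH4 (AT2G06850) fell from 373 ± 35.0 to 226 ± 4.98 CPM. Pectin methylesterases and pectate lyases had 29 higher (26.1%) and 41 lower (36.9%) of 111, near the background on both sides. AT4G23820 fell from 132 ± 12.1 to 25.4 ± 0.716 CPM. Fasciclin and arabinogalactan proteins had 22 higher and 15 lower of 45, with AGP1 (AT5G64310) higher, from 17.8 ± 3.33 to 81.0 ± 4.15 CPM.

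In 10 of the 101 lists the share of counts went, without overlap, against the majority of the calls. Besides the xyloglucan enzymes (ratio 0.937, or 1.06 without XTH4) these include wall-associated kinases (ratio 1.93, or 0.967 without WAK1). They also include carotenoid and plastid isoprenoid synthesis (ratio 0.890, or 0.968 without AT4G15560) and shoot meristem genes (ratio 0.902, or 1.07 without CLV1).

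**Figure D5:**
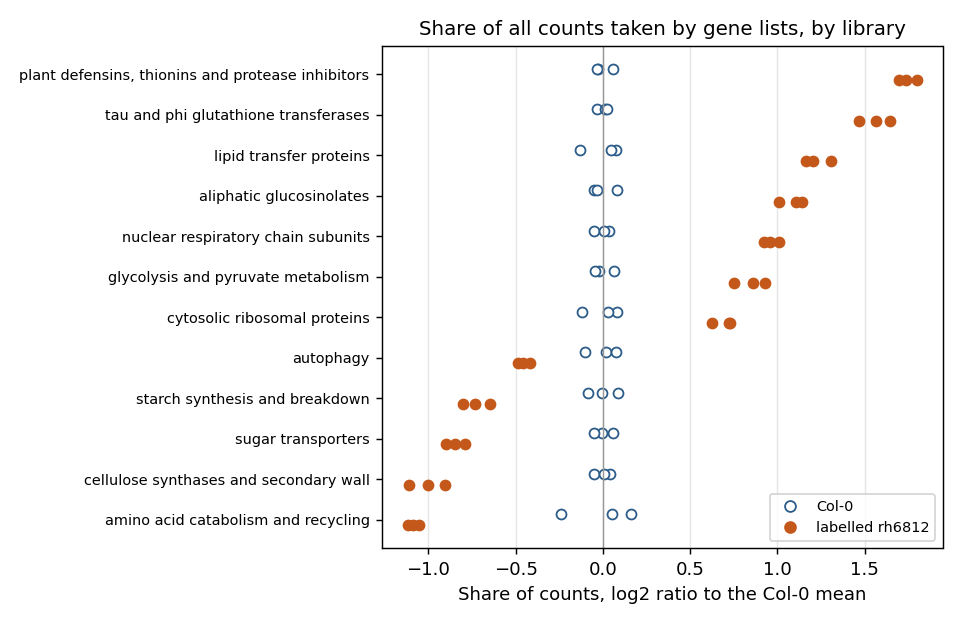
Share of all counts taken by 12 gene lists in each library, relative to the mean of the 3 Col-0 libraries, on a log2 axis. Open circles are Col-0 and filled circles the libraries labelled rh6812. The groups are separate in every list shown, above zero for ribosomal proteins, respiratory chain, glutathione transferases and defensins and below zero for starch, sugar transporters, amino acid catabolism and cellulose.

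Tubulins and actins, the building blocks of the cytoskeleton, had 7 higher and 12 lower of 21. TUB5 (AT1G20010) was at 268, 229 and 273 CPM in the Col-0 libraries, against 71.9, 70.1 and 71.0 CPM in those labelled rh6812, and TUA3 (AT5G19770) fell from 333 ± 15.3 to 157 ± 6.88 CPM, while ACT7 (AT5G09810), the main vegetative actin, rose from 345 ± 37.7 to 583 ± 13.7 CPM. Their coding sequences are alike, so single values are uncertain. RAB GTPases and SNAREs, which direct vesicles, had 16 higher and 32 lower of 83. Their share of counts went the other way, from 0.473% ± 0.00962 to 0.528% ± 0.0280. The ratio of 1.12 was 0.770 without RABE1b (AT4G20360), which is known as the plastid elongation factor Tu. RABG3B (AT1G22740) and RABA1f (AT5G60860) fell from 42.6 ± 5.90 to 5.32 ± 0.137 CPM and from 42.2 ± 0.831 to 7.35 ± 0.596 CPM, and the plasma-membrane SNARE SYP122 (AT3G52400) rose from 23.6 ± 2.77 to 49.4 ± 5.59 CPM.

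Genes of nuclear processes had members that rose and members that fell. Of 59 spliceosome genes 31 rose and 10 fell, and 5 fell without rh6812 replicate 3. The median of 0.28 was 0.12 relative to genes of the same length. YLS8 (AT5G08290), a small protein of the U5 particle, rose from 84.2 ± 1.77 to 166 ± 11.9 CPM and the splicing regulator RS40 (AT4G25500) fell from 87.5 ± 2.23 to 39.1 ± 2.25 CPM. RNA polymerase subunits had 13 higher and 5 lower of 31. NRPA1 (AT3G57660), the largest subunit of the polymerase that makes ribosomal RNA, rose from 17.4 ± 2.01 to 37.8 ± 2.41 CPM. NRPD1B (AT2G40030), the largest subunit of the plant-specific polymerase of RNA-directed DNA methylation, fell from 12.7 ± 0.359 to 6.50 ± 0.660 CPM. Genes for DNA methylation and silencing marks had 5 higher and 15 lower of 37. The 40.5% lower is near the 40.9% over all genes of the same length deciles, and the 13.5% higher compares with 24.4%. DML1 (AT2G36490), the DNA demethylase also called ROS1, was at 6.02, 5.97 and 7.45 CPM in the Col-0 libraries, against 0.377, 0.787 and 0.485 CPM in those labelled rh6812. CLF (AT2G23380), a histone methyltransferase of the Polycomb group, fell from 18.3 ± 1.42 to 10.12 ± 0.912 CPM. DNA replication genes had 9 higher and 11 lower of 44 (9 and 8 without rh6812 replicate 2), with a median of -0.20 (-0.04 relative to length). DNA damage response genes had 10 higher (29.4%) and 12 lower (35.3%) of 34, near the background on both sides. The kinases ATM (AT3G48190) and ATR (AT5G40820), which sense DNA damage, fell from 13.5 ± 0.916 to 6.56 ± 0.530 CPM and from 4.13 ± 0.266 to 1.26 ± 0.354 CPM, and the cell cycle inhibitor LGO (AT3G10525) rose from 5.66 ± 1.43 to 19.6 ± 2.23 CPM.

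Transcription factor families were counted in the same way. NAC factors had 35 higher and 10 lower of 76 tested, of 101 in the list. NAC003 (AT1G02220) and NAC036 (AT2G17040) rose from 3.21 ± 0.706 to 34.9 ± 1.81 CPM and from 0.882 ± 0.272 to 14.1 ± 2.37 CPM. Of 49 bZIP factors 7 rose and 20 fell. Among the rises were HY5 (AT5G11260) and HYH (AT3G17609), which promote development in light. HY5 was at 8.65, 8.84 and 9.74 CPM in the Col-0 libraries, against 18.3, 18 and 20.5 CPM in those labelled rh6812, and HYH rose from 3.26 ± 1.54 to 21.9 ± 2.77 CPM. GBF6 (AT4G34590), whose translation is known to be repressed by sucrose, rose from 5.43 ± 0.667 to 34.2 ± 2.92 CPM, and BZIP61 (AT3G58120) fell from 65.9 ± 4.19 to 11 ± 0.556 CPM. MYB and related factors had 29 higher (34.1%) and 18 lower (21.2%) of 85, and 22 and 23 with library size alone. Growth-regulating factors and partners had 1 higher and 4 lower of 10, and GRF3 (AT2G36400) fell from 32.9 ± 2.87 to 13.3 ± 1.74 CPM. GATA factors had 6 higher (24%) and 8 lower (32%) of 25, near the background on both sides, and 7 and 6 without Col-0 replicate 3. GATA2 (AT2G45050), which acts in light and brassinosteroid responses, and GATA4 (AT3G60530) fell from 17.7 ± 0.646 to 2.76 ± 0.359 CPM and from 71.3 ± 8.91 to 21.0 ± 1.74 CPM, and CGA1 (AT4G26150), a regulator of chloroplast development, rose from 1.77 ± 0.297 to 8.06 ± 0.124 CPM.

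Light and flowering genes fell more often than they rose. Of 35 genes for photoreceptors and light signalling 9 rose and 19 fell, with a median of -0.30 (-0.16 relative to length). PHYA (AT1G09570), the far-red receptor that builds up in darkness, was at 230.2, 200.4 and 208 CPM in the Col-0 libraries, against 76.1, 64.6 and 66.9 CPM in those labelled rh6812. NPH3 (AT5G64330), which acts with phototropin in bending towards light, fell from 50.2 ± 2.15 to 13.4 ± 0.738 CPM, and RUP2 (AT5G23730), which restrains the ultraviolet-B receptor, rose from 12.9 ± 3.00 to 35.6 ± 6.53 CPM. Of 32 flowering time genes 7 rose and 15 fell, with a median of -0.31 (-0.14 relative to length). The floral repressor FLC (AT5G10140) was at 7.67, 7.25 and 7.21 CPM in the Col-0 libraries, against 28.2, 30.4 and 20.8 CPM in those labelled rh6812, the promoter of flowering AGL20 (AT2G45660), also called SOC1, fell from 18.8 ± 1.82 to 7.0 ± 1.252 CPM, and the repressor SVP (AT2G22540) fell from 41.6 ± 2.88 to 21.0 ± 2.13 CPM. These genes share the libraries in which LHY and GI differed, and their part in this result was not tested. In the stomatal lineage 2 rose and 8 fell of 18. MYB88 (AT2G02820) and FLP (AT1G14350), a pair that ends divisions of the guard mother cell, rose from 13.8 ± 1.61 to 69.1 ± 5.70 CPM and from 9.91 ± 0.599 to 36.4 ± 1.49 CPM, and SDD1 (AT1G04110), a protease of stomatal spacing, fell from 7.06 ± 0.590 to 2.05 ± 0.475 CPM. Shoot meristem and organ boundary genes had 11 higher and 6 lower of 25, with a median of 0.04 (0.19 relative to length).

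Marker lists of single cell types were counted against the same background. Guard cell markers had 1 higher and 6 lower of 9, and MYB60 (AT1G08810) was at 11, 13.3 and 8.40 CPM in the Col-0 libraries, against 1.81, 3.50 and 2.47 CPM in those labelled rh6812. Their summed share of counts overlapped between the groups (0.050% ± 0.00471 and 0.0392% ± 0.00607). Most of that share was AT5G26000, and without it the share went from 0.00551% ± 0.000818 to 0.00293% ± 0.000275, a ratio of 0.532. Phloem markers had 1 higher and 8 lower of 12, with a median of -0.36 (-0.20 relative to length), and against a 2-fold change 1 was higher and 0 lower. Their summed share was 0.0527%, 0.0559% and 0.0517% in the Col-0 libraries, against 0.0370%, 0.0374% and 0.0383% in those labelled rh6812, and the sucrose exporter SWEET12 (AT5G23660) fell from 26.4 ± 1.05 to 12.1 ± 1.57 CPM. Xylem markers had 2 higher (20%) and 4 lower (40%) of 10, against 32.2% and 32.4% of all genes tested. Root hair markers had 9 higher and 1 lower of 14, with a median of 0.74 (0.48 relative to length) and a summed share of 0.0101%, 0.00849% and 0.0104% in the Col-0 libraries, against 0.0174%, 0.0125% and 0.0161% in those labelled rh6812. Among them PRP3 (AT3G62680) and RHS13 (AT4G02270) rose from 8.01 ± 1.67 to 21.7 ± 6.61 CPM and from 11.8 ± 1.81 to 22.2 ± 3.85 CPM, and RSL2 (AT4G33880), a regulator of root hair growth, fell from 4.36 ± 0.870 to 0.983 ± 0.204 CPM. Endodermis markers had 4 higher and 1 lower of 9. The trichome list had 4 higher and 2 lower of 11, with GL2 (AT1G79840), which also acts in root epidermis, at 201, 164 and 218 CPM in the Col-0 libraries, against 434, 383 and 432 CPM in those labelled rh6812. Pollen markers summed to 0.000462% ± 6.05e-05 and 0.000497% ± 6.91e-05 of counts, and embryo and seed storage markers to 0.000278% ± 9.80e-05 and 0.000323% ± 0.000112. The part of a changed makeup of tissues in the other lists was not tested.

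Of the 7413 genes that did not pass the test, 3786 had a 95% interval within 0.5 log2 units of no change. For the others the interval reached past that limit, so a difference of that size cannot be set aside.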

How the data were processed

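Poly(A)+ RNA was sequenced and, per the submitters' processing notes, aligned with TopHat2 2.0.14 and Bowtie2 2.2.5 to TAIR10. How reads were counted, and whether by strand, is not given in the sources used here. The authors deposited raw counts per locus, which were used as they are. Of the 27667 loci, 212 had no values in these libraries, which left 27455 nuclear loci. Genes were filtered with edgeR's filterByExpr (minimum count 10, minimum total 15), scaled by TMM and tested by quasi-likelihood in edgeR 4.0.16 (R 4.3.3), with 1 mean per group over the 12 poly(A)+ libraries, the contrast of total RNA, and Benjamini-Hochberg adjustment over all 20949 genes. SE is the log2 change divided by the square root of F. Counts with known changes were also simulated (20325 genes). In them 100 genes were changed 2-fold and 100 were changed 4-fold, all with ample counts. Every group had the means of Col-0 total RNA, and all genes had the same dispersion. There 97% of 2-fold and 100% of 4-fold changes were recovered, and 0.0894% of unchanged genes were called. The real libraries had far more genes called, many at low counts, so these rates cannot be carried over to them.

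Totals of 11783437 to 25864031 counts gave a biological coefficient of variation of 9.53% in Col-0 and 9.08% in the libraries labelled rh6812. Pairs of replicates differed by more than sampling noise, with chi-square per degree of freedom of 4.30 to 11.3, and none was merged. Shares of counts are sums over a list divided by all counts. Symbols, lengths and promoters came from RefSeq TAIR10.1, in Python 3.11.15, pandas 2.3.3 and matplotlib 3.10.9. No coordinates were converted.

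The comparison, its members and the 101 gene lists were chosen with earlier results of these data known. Named genes are RH6, RH8 and RH12, up to 3 genes per list and direction with the smallest p, groups that do not overlap and a mean log2 CPM of 1 or more, the 10 largest gains and losses in plain CPM, and the 6 most abundant genes that did not pass and whose 95% interval lies within 0.5 log2 units of no change. Other genes are named as chosen after their values were seen. Not every gene that the rule selects is reported here. Alternatives were DESeq2 1.42.0, other scaling, no filter, fewer libraries, a replicate block, a 2-fold threshold and, added after seeing the data, list medians relative to length and list shares without the member that changed most in share.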

Additional observations from a re-analysis of the deposited data

How the results depend on the processing

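The counts of genes that rose and fell stayed within 1.5 times the reported ones under DESeq2's size factors (6893 and 6643), library size alone (5482 and 8448), DESeq2's Wald test (6514 and 6224), no count filter (7005 and 6966) and a fit of the 6 libraries alone (6767 and 6682). Tested against a 2-fold change instead of any change, 1819 genes were higher and 937 lower. At that threshold the majority of calls turned in 11 of the 101 lists, from lower to higher for U-box ligases, fatty acid synthesis, aquaporins, cation channels, nucleotide-binding receptors, wall-associated kinases, the MAP kinase cascade, EXO70, DNA damage and phloem and from higher to lower for polyamine and proline genes. Leaving out 1 library at a time gave 6192 to 6589 higher and 6057 to 6933 lower. With the replicate number as a block the counts were 7098 and 7069. Same-numbered libraries had correlations of deviations of 0.01, 0.18 and 0.16, and Col-0 replicate 1 correlated best with rh6812 replicate 3, so the numbers were not taken as pairs. The block moved no total count by over 1.5 times. No gene named in the text that passed the test changed direction under an alternative. For named genes that did not pass, only a gain of a call was recorded. The share of counts of every list kept within its spread when 1 library was left out. Leaving 1 of 3 libraries out cannot move a mean by as much as the SD, so nothing is drawn from this. When the 100 most abundant genes were left out of the denominator, 12 of the 101 shares moved by more than their spread. Without the member that changed most in share, 58 of the 101 shares moved by more than their spread, an alternative chosen after seeing the data. Relative to genes of the same length decile, 33 of the 101 list medians moved by more than the median SE of their members. With library size alone 33 list counts moved by over 1.5 times and 169 did not, and with the block 3 moved. RH6 was higher in the libraries labelled rh6812, the level of short transcripts differed by genotype in every library, and the labels give no time of day. The part of these in the lists was not tested. In the 1st abundance decile, with a median of 0.726 CPM, 47.7% of genes passed, against 82.7% in the most abundant decile, and the part of depth in this was not tested.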

Other observations

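Several smaller families that the report leaves aside moved within themselves in both directions. Polyamine and proline genes had 9 higher and 2 lower of 18, with a median of 0.21 (0.40 relative to length). Of the spermidine synthases SPDS1 (AT1G23820) rose from 35.5 ± 1.77 to 73.9 ± 2.90 CPM and SPDS2 (AT1G70310) fell from 63.5 ± 3.33 to 22.9 ± 1.68 CPM, and the polyamine oxidases PAO3 (AT3G59050) and PAO4 (AT1G65840) rose from 16.5 ± 0.716 to 32.8 ± 0.758 CPM and from 64.0 ± 6.89 to 111 ± 3.93 CPM. Among terpene synthases THAS1 (AT5G48010) and MRN1 (AT5G42600), which start the root triterpenes thalianol and marneral, rose from 13.6 ± 2.42 to 40.6 ± 6.15 CPM and from 31.7 ± 4.03 to 84.4 ± 3.41 CPM, and the lupeol synthase LUP1 (AT1G78970) fell from 8.31 ± 0.604 to 1.08 ± 0.173 CPM. DOF factors had 6 higher and 1 lower of 12, while their share of counts went from 0.0161% ± 0.000620 to 0.0134% ± 0.000617, a ratio of 0.830, or 1.15 without the member that changed most in share. CDF1 (AT5G62430) and CDF2 (AT5G39660), repressors of flowering in the daily cycle, rose from 2.61 ± 0.137 to 9.08 ± 0.799 CPM and from 5.53 ± 0.636 to 11.1 ± 0.333 CPM, in the same direction as LHY, and the part of the clock in this was not tested. U-box ubiquitin ligases had 4 higher and 10 lower of 22, with a median of -0.14 (0.01 relative to length), with PUB4 (AT2G23140) lower, from 21.8 ± 1.46 to 15.2 ± 0.0476 CPM. EXO70 subunits of the exocyst had 3 higher and 7 lower of 20, and EXO70A1 (AT5G03540) fell from 49.9 ± 4.56 to 32.3 ± 2.84 CPM. The 15% higher and 35% lower compare with 25.7% and 40.0% over all genes of the same length deciles. In the list of leaf growth and senescence, which had 9 higher and 5 lower of 18 and a share of counts that went from 0.120% ± 0.0162 to 0.0941% ± 0.00157, the dark-induced SEN1 (AT4G35770) was at 138, 156 and 95.8 CPM in the Col-0 libraries, against 26.3, 28.3 and 19.1 CPM in those labelled rh6812, without overlap. Of the chlorophyll breakdown genes in that list, PPH (AT5G13800) and ACD2 (AT4G37000) rose from 44.7 ± 2.62 to 75.3 ± 3.72 CPM and from 26.7 ± 2.07 to 58.6 ± 2.74 CPM and NYC1 (AT4G13250) fell from 119 ± 11.2 to 74.7 ± 4.65 CPM.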
